A study of Rattus norvegicus with 9 samples.

Results

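The hippocampus (HC) was compared with the prefrontal cortex (PFC) of the same animals, 3 untreated male Wistar rats with the numbers 2, 5 and 7. Each region of each rat had been hybridized to 1 Rat Gene 1.0 ST array, which gave 3 HC arrays and 3 PFC arrays, with both regions under a number taken from 1 animal. Blood of these rats was also measured and stayed out of the fit. Of 29214 probe sets with values, 14174 were kept because their mean value was above 6.2, the cut-off of the study's methods, in at least 1 of the 2 regions. Of these, 9228 carried exactly 1 gene symbol, and they stand for 8623 genes. The rats were 6 weeks old on arrival and were housed for 1 week, no allele or agent distinguished the groups, and Wistar rats are an outbred stock. Tissue was punched from frozen coronal sections and not sorted, so each array averages all cells in the punch.

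The hippocampus is a folded strip of cortex with few cell layers. Granule cells of the dentate gyrus send mossy fibres to CA3, CA3 projects to CA1, and the small CA2 field lies between them, and each field has genes by which it can be recognised. The prefrontal cortex is a layered neocortex in which upper layers link cortical areas and deep layers project out of the cortex. It receives dense monoamine input and is known for working memory and control of behaviour, as the hippocampus is for spatial and episodic memory and for feedback on stress hormones.

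Values are RMA (robust multi-array average) summaries on the log2 scale, and differences are HC minus PFC on this scale, so that a positive difference means higher in HC. Each value belongs to 1 probe set, and levels of different genes are not compared. A difference was called at an adjusted p under 0.05 in a limma fit with the rat as a block, adjusted over all 14174 probe sets. Beside a difference stands its standard error. In bulk tissue, fewer cells of a type and less RNA per cell cannot be told apart.

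The labelled tissue was checked against a few defining markers. Prox1, C1ql2, Wfs1, Rgs14, Grik4 and Zbtb20, which mark hippocampal cells, were all higher in HC, although other members of the same lists were lower, as given with each list. For neocortex, Etv1 was lower in HC by 0.44 on the log2 scale, whereas Fezf2 (-0.41) and Tle4 (0.06) were not called, so the label of PFC rests on few markers here, and Cux2, Rorb, Lamp5 and Tbr1 had no probe set with their symbol alone. The 6 arrays had mean values of 6.15 to 6.17 with SDs of 2.18 to 2.21. Over tested probe sets Pearson's r was 0.991 to 0.995 within a region and 0.955 to 0.960 between arrays of different regions, a description across probe sets that are not independent.

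Of the 14174 probe sets, 4788 (33.8%) differed between the regions. Higher in HC were 2424 (17.1%) and lower 2364 (16.7%), and 6318 had an unadjusted p under 0.05. The nearly even split is that of the deposited values, which were quantile normalized. That step holds the distributions of the arrays alike and favours an even split, so the split is not read as a result. With the arrays scaled on the median level of a housekeeping panel, 1967 were higher and 2925 lower in HC. That scaling moved the differences by -0.0367 in the median. The panel's genes already had a median difference of -0.0633, so it did not balance the panel. Most differences were small, with a median of 0.335 among those higher in HC and -0.339 among those lower. Only 203 were higher and 226 lower by over 1, and 7 were higher and 3 lower by over 3. Over all probe sets tested the median was 0.00192, and the median size of a difference was 0.123. Every called difference had the same direction in the 3 rats. All HC values lay above all PFC values for 3358 probe sets (23.7%) and below them for 3271 (23.1%), and 2156 of these were not called.

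**Figure D1:**
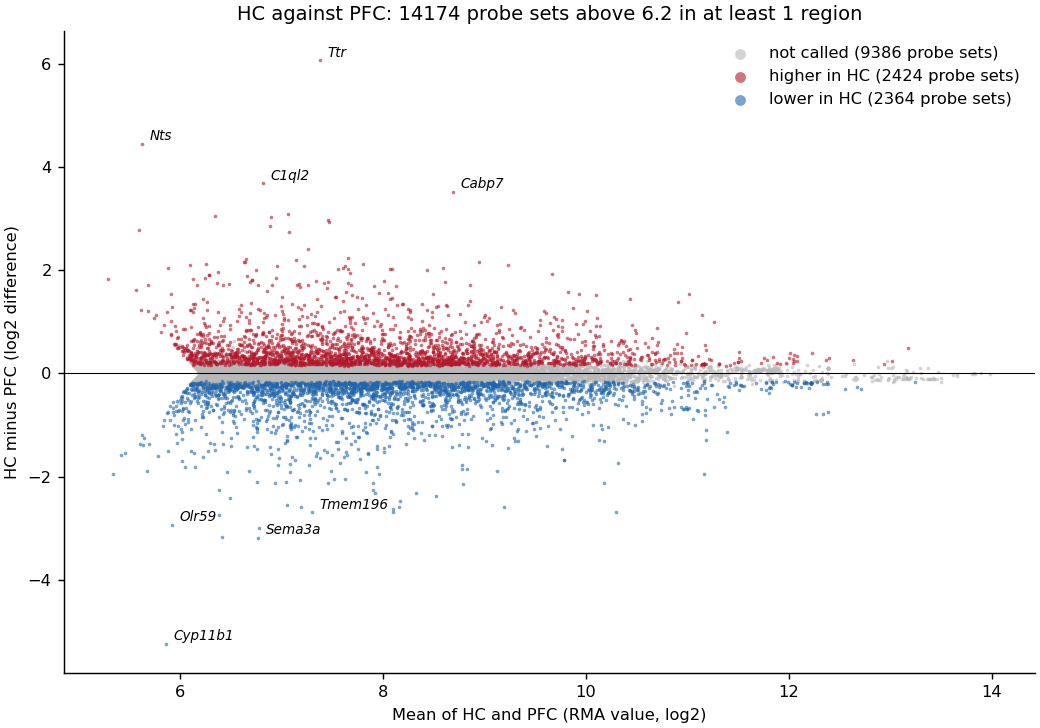
HC minus PFC difference (log2, vertical axis) against the mean of both regions (RMA value, log2, horizontal axis), 1 point per probe set, with those called higher in HC in red, those called lower in blue and the rest in grey. The 2424 red and 2364 blue points lie about evenly on both sides of 0, and few pass 2 in either direction, Ttr reaching 6.07 and Cyp11b1 -5.24.

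The precision allowed a statement on genes that did not differ. The median standard error was 0.0533, and the 95% interval of a difference reached 0.132 to each side in the median. For 11703 probe sets (82.6%) the whole interval lay within 0.5 of 0, and 9191 of the 9386 probe sets without a call were among them. A difference of over 0.5 can thus be set aside for most genes that were not called.

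The gene with the widest difference was Ttr, transthyretin, the thyroid hormone carrier that the choroid plexus makes. Its value was 11.20, 10.09 and 9.96 in the HC of rats 2, 5 and 7, and 4.45, 4.39 and 4.20 in PFC, so the groups lay far apart and rat 2 stood highest in HC. The difference was 6.07 ± 0.205 (adjusted p = 4.06e-05). In PFC Ttr was not above background, taken as the 95th percentile of 1298 probe sets for chemosensory receptors (4.88 in HC and 4.85 in PFC, chosen after seeing the data), and with PFC raised to that level the difference was 5.57. Nts, the precursor of the neuropeptide neurotensin, had 8.19, 7.92 and 7.46 in HC against 3.30, 3.17 and 3.73 in PFC, a difference of 4.46 ± 0.221 (adjusted p = 0.000101), or 3.01 with PFC at background, which is less than the differences of C1ql2, Cabp7, Prox1 and Slc9a4.

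Other wide differences belonged to genes of hippocampal granule cells and to genes with less familiar roles. C1ql2, a secreted synaptic organizer of mossy fibres, had 8.60, 8.72 and 8.67 in HC and 5.08, 4.96 and 4.88 in PFC. It was 12.9-fold higher in HC (difference 3.69 ± 0.066, adjusted p = 8.74e-06). Cabp7, a calcium-binding protein, was well above the cut-off in PFC too, at 6.97, 6.85 and 6.97, but reached 10.38, 10.38 and 10.58 in HC (3.52 ± 0.0557). Prox1, the transcription factor that gives granule cells their identity, differed by 3.09 ± 0.0719 and the sodium/proton exchanger Slc9a4 by 3.04 ± 0.1. Then followed Lrrc10b at 2.98, the desmosomal protein Pkp2 at 2.85, the lipoprotein lipase Lpl at 2.75 and the postsynaptic scaffold Tanc1 at 2.42. The transcription factor St18 (2.21), Nkain3 (2.16), Kctd4 (2.15), the serotonin receptor Htr5b (2.12) and Cd3e (2.10) completed the 15 widest with a single gene symbol. Probe sets without a single symbol, 38 of the 100 widest, were left out of this ranking.

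Lower in HC were an enzyme, a guidance cue and several genes of excitability. Cyp11b1, the enzyme that makes corticosterone in the adrenal cortex, had 8.36, 8.39 and 8.71 in PFC and 3.38, 3.31 and 3.05 in HC, where it was not above background. The difference was -5.24 ± 0.133 (adjusted p = 2.08e-05), or -3.61 with HC at background. Its near-identical neighbour Cyp11b2, aldosterone synthase, stayed under the cut-off in both regions with means of 4.45 in HC and 5.74 in PFC, and probes of such close copies can read each other's RNA. Sema3a, a repellent cue for growing axons, had 8.43, 8.27 and 8.40 in PFC against 5.22, 5.19 and 5.12 in HC, a difference of -3.19 ± 0.056 (adjusted p = 8.74e-06).

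Rgs4, which shortens signals of Gq- and Gi-coupled receptors, was high in both regions and still differed by -2.68 ± 0.0472, with 11.69, 11.71 and 11.51 in PFC and 9.06, 8.97 and 8.83 in HC. Tmem196 (-2.70), the potassium channel subunits Kcnf1 (-2.68) and Kcnh5 (-2.60) and Cbln2 (-2.63), a secreted synaptic organizer, were close to it. Htr2a, the serotonin 2A receptor, differed by -2.47 ± 0.0444. The calcium pump Atp2b4 (-2.38), Rasgef1c (-2.41), Ipcef1 (-2.33), the potassium channel partner Dpp10 (-2.32), the neurokinin B receptor Tacr3 (-2.26) and the cell surface glycoprotein Cd34 (-2.13) followed. Olr59, annotated as an olfactory receptor, stood at -2.94, or -2.51 with HC at background, and belongs to a large family of similar genes, so its identity is uncertain.

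**Figure D2:**
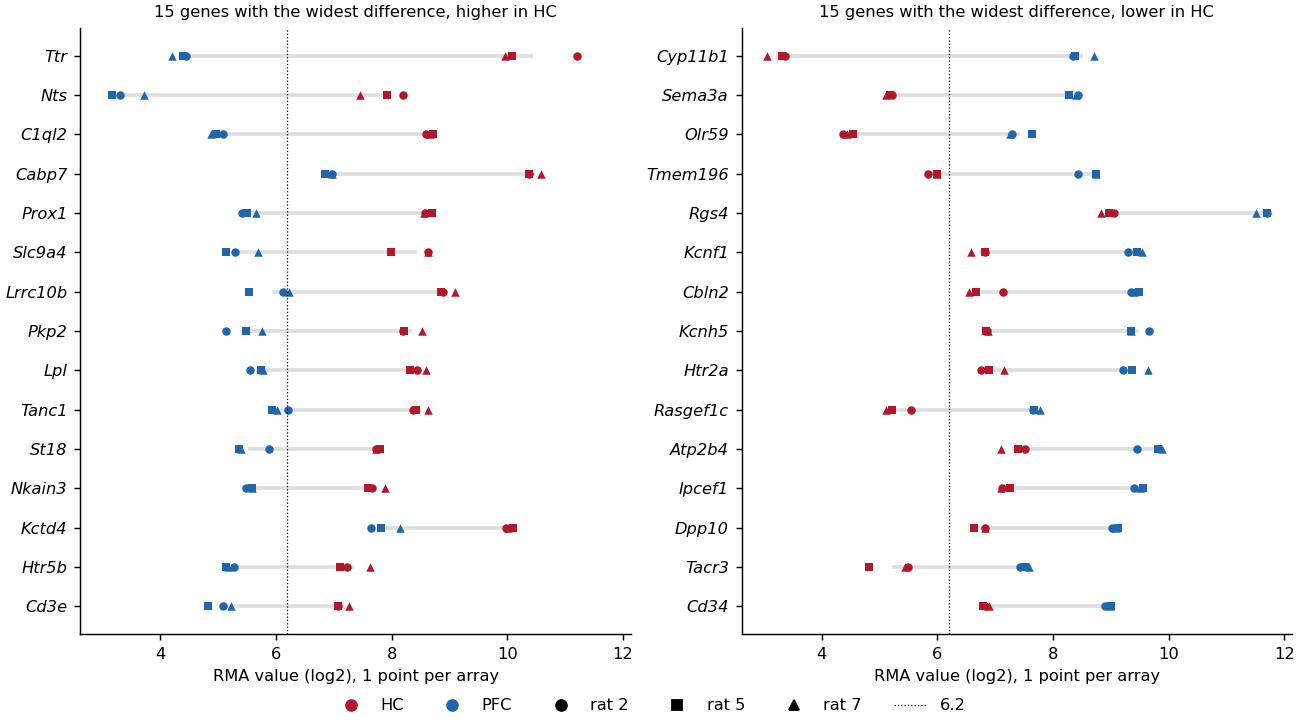
RMA values (log2, horizontal axes) of the 15 genes with the widest difference in each direction among probe sets with a single symbol, 1 point per array, with HC in red, PFC in blue, the shape giving the rat, a grey line joining the region means and a dotted line at 6.2. In all 30 genes the 3 HC points and the 3 PFC points do not overlap, and Ttr shows the widest spread in HC, from 9.96 to 11.20.

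The counts of each list below stand against 33.8% of all probe sets called, 17.1% higher and 16.7% lower in HC. Among lists with over 1 gene tested, microglia markers (8.33% called) and ribosomal (13.6%), respiratory (27.5%) and housekeeping genes (33.3%) lay at or under that share. Thalamus and habenula markers (40%), neurogenesis genes (45.5%) and endothelial markers (47.6%) lay above it, and the other lists ran from 52.4% to 100%, with no test of these shares. The shares pool both directions, although the 10 calls among 21 endothelial markers and the 14 among 51 respiratory genes were all lower in HC. Markers of all 4 hippocampal fields included genes that were higher in HC, but no field list was uniform. Of 13 dentate granule cell markers tested, 9 were higher and 3 lower in HC (median 0.66), and 7 of the 9 were above the cut-off in both regions. Besides C1ql2 and Prox1, the transcription factor Bhlhe22 had 8.29, 8.23 and 8.19 in HC and 6.35, 6.43 and 6.57 in PFC, a difference of 1.79 ± 0.0696. The guidance protein Sema5a differed by 0.99 ± 0.0577. Lower in HC were Calb1 (-0.48), a calcium-binding protein that upper layer neurons also contain, Pdzd2 (-0.32) and Rasl10a (-0.29).

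Of 13 CA1 markers, 7 were higher and 3 lower (median 0.30). The serotonin 1A receptor gene Htr1a had 8.95, 9.13 and 8.86 in HC and 7.32, 7.32 and 7.204 in PFC (1.70 ± 0.0558), and Fibcd1, a receptor that binds acetylated sugars, differed by 1.60 ± 0.085. Wfs1, a protein of the endoplasmic reticulum, had 10.42, 10.48 and 10.64 in HC against 8.93, 9.34 and 9.45 in PFC (1.28 ± 0.0788). The potassium channel Kcnh7 was lower in HC at -1.38 ± 0.0592, as were Zdhhc2 (-0.62) and Mpped1 (-0.47).

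Markers of CA2 and CA3 were higher in HC or not called, apart from 1 gene. Of 8 CA2 markers 5 were higher and none lower (median 0.63), while Pcp4 (-0.25), Ptpn5 (-0.04) and S100b (0.08) were not called. The calcium-binding protein Necab2 differed by 1.35 ± 0.0739, neurotrophin 3 (Ntf3) by 1.24 ± 0.126 and Rgs14, a brake on plasticity in CA2, by 0.93 ± 0.0543. Of 13 CA3 and mossy cell markers 7 were higher and 1 lower (median 0.65), the latter Spock1 at -0.57. Cpne4, a calcium-dependent membrane-binding protein, had 10.54, 10.53 and 10.83 in HC and 8.03, 8.81 and 9.25 in PFC (1.94 ± 0.176), so the PFC of rat 2 stood lowest. The ubiquitin ligase Rnf182 differed by 1.77 ± 0.0744, the kainate receptor subunit Grik4 by 1.35 ± 0.0639 and the scaffold Homer3 by 1.33 ± 0.0578.

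Among 14 factors that pattern the hippocampus or act in its neurons, 8 were higher and 3 lower in HC (median 0.27). Of the 8, 6 were above the cut-off in both regions. Nr3c2, the mineralocorticoid receptor, had 9.54, 9.66 and 9.64 in HC and 7.56 in the PFC of all 3 rats, a difference of 2.05 ± 0.049 (adjusted p = 2.08e-05). Zbtb20, a repressor needed for CA1 identity, had 9.69, 9.63 and 9.83 against 8.09, 8.01 and 7.91 (1.71 ± 0.074), and Neurod1, a factor of neuronal differentiation, differed by 1.45 ± 0.0769. Lhx9 was higher at 1.13 ± 0.209, with 5.80, 6.49 and 6.70 in HC, so its HC values lay on both sides of the cut-off, and without rat 5 it was not called (1.03, adjusted p = 0.0698). The 3 lower genes were Hopx (-0.82), Klf7 (-0.23) and Nr2f1 (-0.20).

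Markers of neocortical layers leaned towards PFC and did not separate the regions completely. Of 10 upper layer markers 7 were lower and 3 higher in HC (median -0.47). Stard8 had 7.12, 7.43 and 7.11 in PFC and 6.28, 6.36 and 6.33 in HC (-0.90 ± 0.0681), Otof, a calcium sensor of vesicle fusion, differed by -0.90 ± 0.0987 and the homeodomain factor Cux1 by -0.74 ± 0.0717. The 3 higher in HC were Rgs8 (0.29), Mdga1 (0.40) and Rasgrf2 (0.48). Of 20 deep layer markers 10 were lower and 4 higher (median -0.30), but only 5 of the 10 were above the cut-off in both regions. Rxfp1, the relaxin receptor, had 7.62, 7.82 and 7.95 in PFC and 5.98, 6.19 and 6.29 in HC (-1.64 ± 0.0444). Npr3, which clears natriuretic peptides, differed by -1.50 ± 0.109 and the sulfatase Sulf1 by -1.02 ± 0.0886. Nr4a2 was higher in HC by 1.45 ± 0.0813, as were Sema3e (0.83), Ntng2 (0.45) and Sulf2 (0.32).

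Neurons of neighbouring regions that a punch can reach were also checked. Of 10 striatal markers 5 were lower in HC and 1 was higher (median -0.21), with the homeodomain factor Meis2 at -1.63 ± 0.102, proenkephalin (Penk) at -0.93 ± 0.105 and Foxp1 at -0.63 ± 0.0612. The G protein subunit Gng7 was higher in HC by 0.94 ± 0.0487. A further 7 striatal markers had means under the cut-off in both regions and were not tested. Among them Tac1 had means of 5.23 in HC and 6.18 in PFC (-0.95), with 6.52 in the PFC of rat 5. The dopamine receptor Drd2 (-0.28), Ido1 (-0.17), Gpr6 (-0.025) and the striatal regulator Rgs9 (-0.024) had the same direction. Isl1 (0.023) and Syndig1l (0.08) had the opposite one. Of 5 thalamus and habenula markers tested, Lhx9 was higher and Ramp3 (-1.04 ± 0.0658) lower in HC, Lhx9 being above the cut-off in HC alone. The part of neighbouring tissue in the differences above was not tested.

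**Figure D3:**
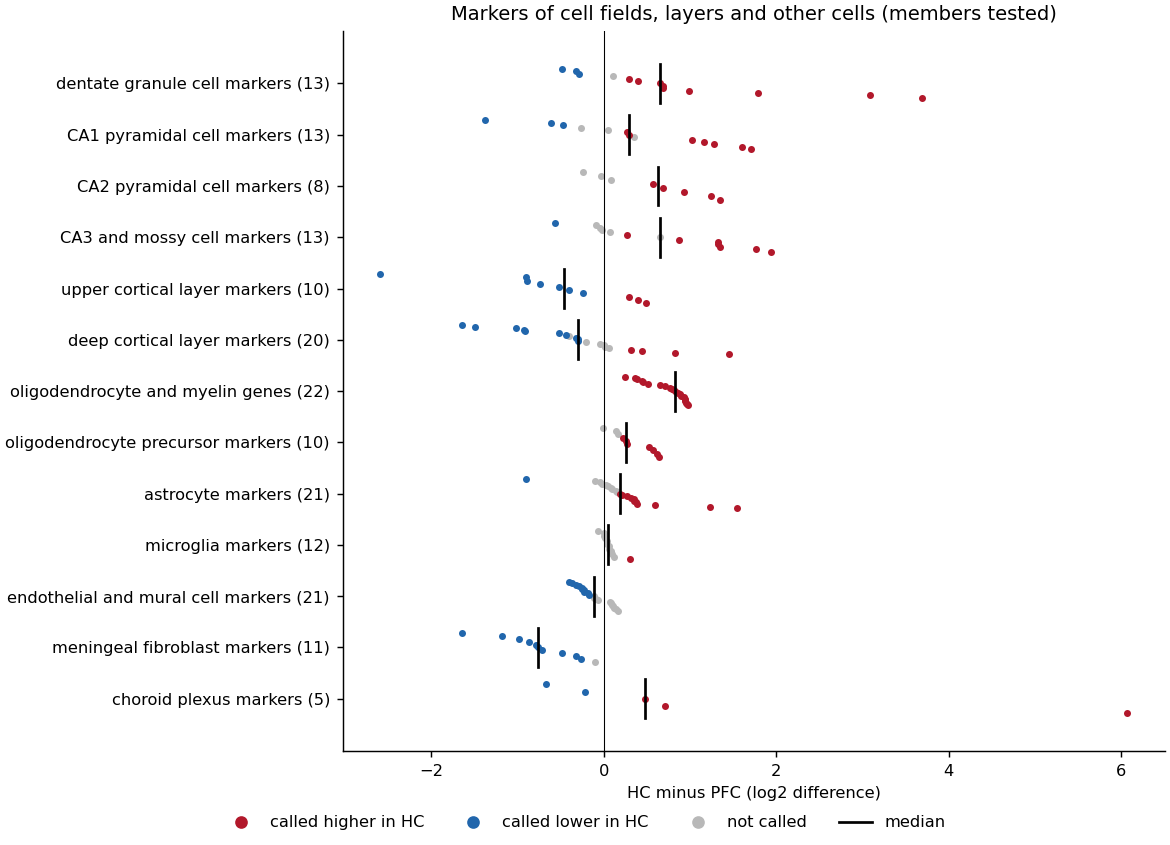
HC minus PFC differences (log2, horizontal axis) of the tested members of 13 marker lists, 1 point per gene, red where called higher in HC, blue where called lower and grey where not called, with a bar at each list's median. All 22 oligodendrocyte and myelin genes lie to the right of 0, at a median of 0.83, whereas 10 of 11 meningeal fibroblast markers are blue, and the microglia markers cluster around 0.

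Oligodendrocyte and myelin genes had a single direction. Oligodendrocytes wrap axons in myelin, and all 22 of these genes were higher in HC (median 0.83, from 0.25 to 0.97), 19 of them above the cut-off in both regions, and with housekeeping scaling 21 were called. Mog, a myelin surface protein, had 10.33, 10.30 and 9.77 in HC and 9.48, 9.13 and 8.87 in PFC, a difference of 0.97 ± 0.0747 (adjusted p = 0.000411). Fa2h, which makes the hydroxylated fatty acids of myelin lipids, differed by 0.97 ± 0.0452, Ugt8, the galactosylceramide synthase, by 0.96 ± 0.0652 and Mobp by 0.95 ± 0.0833. The mean over the list was 8.92 to 9.23 on the HC arrays and 8.16 to 8.63 on the PFC arrays, which do not overlap. Of the 2 probe sets for myelin basic protein, Mbp, the brighter was higher in HC at 0.79 and the dimmer lower at -0.29.

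Other glia differed less. Of 10 oligodendrocyte precursor markers 7 were higher and none lower (median 0.26), led by the proteoglycan Vcan (0.63 ± 0.0686), the phosphatase Ptprz1 (0.62 ± 0.0466), Bcan (0.57 ± 0.0527) and the receptor Gpr17 (0.52 ± 0.051). Of 21 astrocyte markers 11 were higher and 1 lower (median 0.19). Gfap, the intermediate filament of astrocytes, had 10.56, 10.69 and 10.86 in HC and 8.92, 9.19 and 9.35 in PFC (1.55 ± 0.0518, adjusted p = 4.05e-05). Angiotensinogen, Agt, differed by 1.23 ± 0.0765 and the water channel Aqp4 by 0.59 ± 0.0542, while Itih3 was lower in HC at -0.90 ± 0.0499. Pan-astrocytic Aldoc (-0.05) and Aldh1l1 (0.09) were not called. Of 12 microglia markers only the transcription factor Sall1 was called (0.30 ± 0.053), and the median was 0.04. The microglial genes Cx3cr1 (-0.00149) and Csf1r (0.11) were among the 11 not called.

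Most meningeal markers were higher in PFC, and vessel markers were called lower in HC or not at all. Of 11 meningeal fibroblast markers 10 were lower in HC and none higher (median -0.77), 6 of the 10 above the cut-off in both regions. Ogn, a small proteoglycan, had 8.14, 8.25 and 8.22 in PFC and 6.63, 6.57 and 6.48 in HC (-1.64 ± 0.0598). The retinoic acid enzyme Aldh1a2 differed by -1.18 ± 0.122, the collagen Col1a2 by -0.98 ± 0.0594 and Igfbp2 by -0.86 ± 0.0791. The mean over all 14 meningeal markers with a probe set was 6.06 to 6.11 in HC and 6.73 to 6.77 in PFC. Of 21 endothelial and mural cell markers 10 were lower, 11 not called and none higher (median -0.12), with small differences such as vitronectin, Vtn (-0.41 ± 0.0493), and the receptor Kdr (-0.28 ± 0.0457). Without the rat as a block 6 of the 10 were called, and without rat 5 Kdr was not (-0.26, adjusted p = 0.0508).

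Blood cell genes were mostly under the cut-off, and 3 of 20 were tested. The globin genes Hbb (-0.97 ± 0.085) and Hbb-b1 (-1.01 ± 0.0903), near-identical copies that probes may not tell apart, were lower in HC. Cd3e, a subunit of the T cell receptor complex, was higher in HC, with 7.08, 7.08 and 7.27 against 5.09, 4.82 and 5.23. Its partner genes Cd3g (2.85 in HC and 2.96 in PFC) and Cd3d (3.99 and 4.20) and the T cell kinase Lck (5.63 and 5.64) were under the cut-off in both regions. Over all 20 markers the mean was 4.97 to 5.12 in HC and 5.12 to 5.23 in PFC.

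The choroid plexus, which lies in the ventricles beside the hippocampus, was checked because Ttr is its main product. Of 23 markers with a probe set, 18 stayed under the cut-off in both regions, with HC minus PFC differences of means from -0.22 to 1.54 and a median of 0.12. The widest of these were Calml4 (1.54), the tight junction protein Cldn2 (1.13) and the chloride channel Clic6 (1.12). Among the 5 tested, Ttr, the lysophospholipase Enpp2 (0.71 ± 0.127) and the channel Trpm3 (0.48 ± 0.113) were higher in HC and the sulfate transporter Slc13a4 (-0.67 ± 0.0534) and Igf2 (-0.22) were lower. Enpp2 had 10.46, 10.03 and 9.74 in HC. Without rat 5 neither Enpp2 (0.73, adjusted p = 0.0534) nor Trpm3 (0.47, adjusted p = 0.106) was called, and without rat 7 Trpm3 was not (0.32, adjusted p = 0.0721). Without Ttr, the mean over the list was 5.90, 5.56 and 5.58 in HC and 5.46, 5.35 and 5.35 in PFC. The part of the choroid plexus in the Ttr difference was not tested. Of 12 ependymal markers only Rarres2 (0.05) passed the cut-off, and it was not called.

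Genes of interneurons were divided. Interneurons are the inhibitory cells of cortex and hippocampus and fall into classes by the peptides and calcium-binding proteins they make. Of 26 markers 6 were higher and 10 lower (median -0.07). The receptor tyrosine kinase Kit had 8.78, 8.84 and 9.08 in HC and 6.99, 7.18 and 7.18 in PFC (1.78 ± 0.0613). Lower in HC were the peptides Vip (-1.17 ± 0.0585) and Cck (-1.10 ± 0.0697) and parvalbumin, Pvalb (-0.85 ± 0.0665). Of these peptides, Cck is also made by pyramidal cells of the cortex. The GABA-producing enzyme Gad1 (-0.03) was not called, whereas Gad2 was higher at 0.29.

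Neuropeptides other than neurotensin mostly stood higher in PFC. Of 24 tested, 14 were lower and 5 higher in HC (median -0.33), and among members above the cut-off in both regions 11 were lower and 4 higher. Cck, cholecystokinin, had 11.56, 11.83 and 11.83 in PFC and 10.60, 10.56 and 10.74 in HC. Vip had 6.80, 6.81 and 6.91 in PFC and stayed at 5.73, 5.67 and 5.62 in HC. Higher in HC were Nts, Agt, the granin Scg2 (1.07), prodynorphin, Pdyn (0.87), which mossy fibres release, and Cartpt (0.41).

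Their receptors took both directions. Of 21 receptors 10 were lower and 6 higher (median -0.28), and among members above the cut-off in both regions 5 were lower and 3 higher. Sstr1, a somatostatin receptor, had 8.47, 8.80 and 8.66 in PFC and 6.68, 6.68 and 6.45 in HC (-2.04 ± 0.0873). Tacr3 differed by -2.26 ± 0.141. Npy2r, the presynaptic receptor of neuropeptide Y, had 6.88, 7.25 and 7.60 in HC and 5.04, 5.36 and 5.58 in PFC, so that rat 2 was lowest and rat 7 highest in both regions, and the difference was steady at 1.92 ± 0.0538. Mas1, a receptor of the angiotensin system, differed by 1.77 ± 0.0594.

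Serotonin receptors differed in both directions. The monoamine and acetylcholine receptor list held 7 higher and 14 lower genes of 26 (median -0.24). Among its members above the cut-off in both regions 5 were higher and 11 lower. Htr2a, an excitatory receptor of cortical pyramidal cells, had 9.21, 9.37 and 9.64 in PFC and 6.75, 6.89 and 7.16 in HC. The other way round, Htr5b had 7.23, 7.10 and 7.63 in HC and 5.28, 5.14 and 5.17 in PFC. Htr4, which couples to cyclic AMP, had 7.88, 7.86 and 7.87 in HC against 6.25, 5.88 and 5.93 (1.85 ± 0.081), and the inhibitory receptor Htr1a differed by 1.70 ± 0.0558. The nicotinic subunit Chrna4 (-1.50) and the muscarinic receptor Chrm2 (-1.24) were lower in HC. The muscarinic receptor Chrm3 (-0.07) was not called.

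Ionotropic glutamate receptor genes leaned towards HC. Of 26 AMPA, NMDA and kainate receptor subunits and auxiliary proteins 13 were higher and 8 lower in HC (median 0.21). Gria1, the AMPA receptor subunit used in hippocampal potentiation, had 11.81, 11.76 and 11.77 in HC and 10.13, 10.29 and 10.31 in PFC (1.54 ± 0.0623, adjusted p = 6.25e-05). Cnih2, an AMPA receptor auxiliary protein, differed by 1.38 ± 0.0592 and the kainate subunit Grik4 by 1.35 ± 0.0639. The kainate subunit Grik3 went the other way, with 7.73, 7.55 and 7.81 in PFC and 6.58, 6.46 and 6.199 in HC (-1.28 ± 0.106). Among NMDA subunits, Grin1 (-0.17) was not called, while Grin2a (0.45) and Grin2b (0.23) were higher in HC and Grin3a (-0.74) was lower. Of 9 metabotropic receptors and Homer scaffolds 3 were higher and 5 lower (median -0.27), with 3 of the 5 above the cut-off in both regions. Grm8, a presynaptic receptor, had 7.83, 8.06 and 8.10 in PFC and 6.29, 5.92 and 5.42 in HC (-2.12 ± 0.2). Grm4 (-0.71 ± 0.0888) and Grm2 (-0.69 ± 0.0803) had the same direction.

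GABA receptor alpha subunits differed in both directions. These subunits set the kinetics and pharmacology of the chloride channel. Of 12 genes 4 were higher and 6 lower (median -0.33). Gabra3 had 9.51, 9.70 and 9.78 in PFC and 7.90, 7.90 and 7.87 in HC (-1.77 ± 0.0695). Gabra5, which mediates tonic inhibition of hippocampal pyramidal cells, had 10.52, 10.56 and 10.76 in HC and 9.26, 9.43 and 9.52 in PFC (1.21 ± 0.0498), and Gabra2 was also higher (0.73). The extrasynaptic subunit Gabrd was lower in HC at -1.09 ± 0.0859 and the GABA-B receptor partner Kctd8 at -0.93 ± 0.051. Gabra4 (-0.13) was not called.

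**Figure D4:**
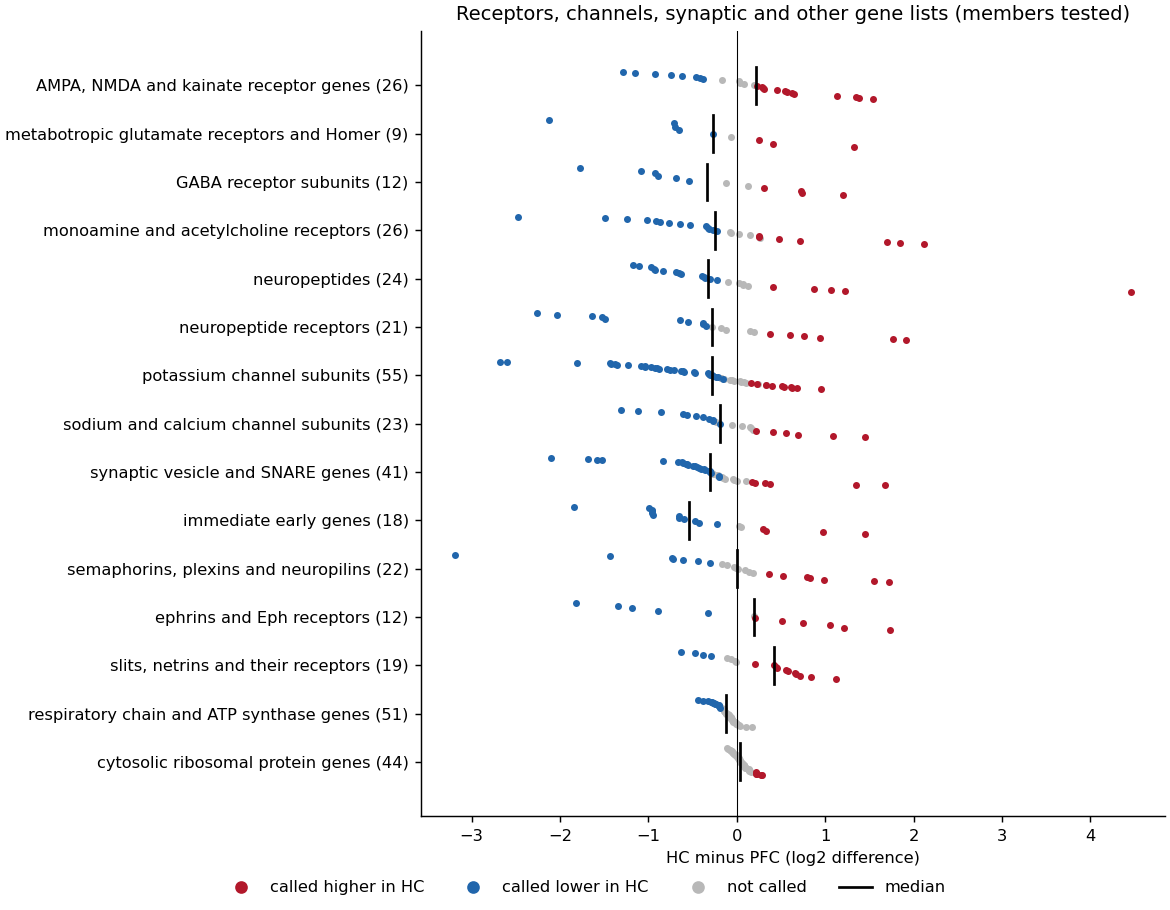
HC minus PFC differences (log2, horizontal axis) of the tested members of 15 lists of receptors, channels, synaptic, guidance and other genes, 1 point per gene, red where called higher in HC, blue where called lower and grey where not called, with a bar at each list's median. The bars of potassium channels (-0.28), synaptic vesicle genes (-0.30) and immediate early genes (-0.54) lie to the left of 0 and those of slits and netrins (0.42) and AMPA, NMDA and kainate receptors (0.21) to the right.

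Potassium channel genes were mostly lower in HC. These channels bring the membrane back to rest and set firing patterns. Of 55 subunits and partners tested 31 were lower, 10 higher and 14 not called (median -0.28). Kcnf1, a silent subunit that modifies other channels, had 9.31, 9.46 and 9.54 in PFC and 6.83, 6.83 and 6.59 in HC, a 6.42-fold difference. Kcnh5, of the ether-a-go-go family, had 9.67, 9.35 and 9.35 in PFC and 6.86, 6.83 and 6.88 in HC. The sodium-activated channel Kcnt1 differed by -1.81 ± 0.086 and the mechanosensitive leak channel Kcnk4 by -1.44 ± 0.0563. Higher in HC were the A-type partner Kcnip2 (0.95) and the inward rectifier Kcnj6 (0.69), both chosen for description after their values were seen.

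Of 23 sodium and calcium channel genes 6 were higher, 11 lower and 6 not called (median -0.19). Scn3b, an accessory sodium channel subunit, had 11.18, 11.03 and 11.27 in HC and 9.50, 9.76 and 9.86 in PFC (1.45 ± 0.0837). Scn1a, the sodium channel of fast-spiking interneurons, had 10.30, 9.93 and 9.67 in PFC and 8.90, 8.83 and 8.83 in HC (-1.12 ± 0.105), and the accessory subunit Scn4b differed by -1.31 ± 0.146. In both genes the PFC of rat 2 stood highest and that of rat 7 lowest. The T-type calcium channel Cacna1h was higher in HC by 1.09 ± 0.0534.

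Genes of vesicle release also leaned towards PFC. Vesicles dock at the active zone, are primed by SNARE proteins and fuse when a synaptotagmin or Doc2 binds calcium. Of 41 genes 24 were lower, 6 higher and 11 not called (median -0.30). Rims3, of the active zone, had 8.16, 8.09 and 8.02 in PFC and 5.88, 6.12 and 5.98 in HC (-2.10 ± 0.0713). The plasma membrane SNARE Stx1a had 10.56, 10.62 and 10.69 in PFC and 8.95, 8.85 and 9.04 in HC (-1.68 ± 0.0524). The Doc2 calcium sensors were split. Doc2a was lower in HC, with 8.17, 8.48 and 8.66 in PFC against 6.99, 6.80 and 6.76 (-1.59 ± 0.134), whereas Doc2b was higher, with 7.65, 8.36 and 8.07 in HC against 6.02, 6.59 and 6.43 (1.68 ± 0.0519). The release genes Unc13a (-0.00246) and Bsn (-0.03) were not called.

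Guidance genes, which are known from the growth of axons, differed widely between the regions. Semaphorins repel or attract axons through neuropilins and plexins. Of 22 such genes 7 were higher and 7 lower, with a median of -0.00132, and 4 of the 7 lower ones were above the cut-off in both regions. The ligands Sema3a (-3.19) and Sema3d (-1.43 ± 0.0678) were lower in HC. The neuropilins Nrp1, with 9.29, 9.20 and 9.30 in HC and 7.56, 7.73 and 7.85 in PFC (1.55 ± 0.0685), and Nrp2, with 7.99, 8.19 and 8.19 against 6.13, 6.35 and 6.74 (1.72 ± 0.0909), were higher. Semaphorins were not all lower, since Sema5a (0.99) and Sema3e, given with other lists, were higher in HC.

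Ephrins and their Eph receptors, which act by contact between cells, were 6 higher and 5 lower of 12 (median 0.20). The ligands Efna5 (-1.82 ± 0.0869) and Efnb2 (-1.34 ± 0.0627) were lower in HC. The receptors Epha8, with 7.31, 7.06 and 7.68 in HC against 5.80, 5.43 and 5.63 (1.73 ± 0.105), and Epha7 (1.21 ± 0.0924) were higher. Ligands and receptors were not divided throughout, since the ligand Efnb3 (1.05) was higher and the receptors Ephb6 (-1.18) and Ephb3 (-0.89) were lower. Slits, netrins and their receptors had 11 higher and 4 lower of 19 (median 0.42). The netrin receptor Dcc had 8.53, 8.63 and 8.68 in HC and 7.33, 7.55 and 7.58 in PFC (1.13 ± 0.0486), and Slit1 (0.84 ± 0.0587), Ntng1 (0.71 ± 0.0479) and Unc5c (0.67 ± 0.0446) followed.

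Adhesion and growth factor genes gave no common direction. Of 15 cadherins 5 were higher and 7 lower (median -0.15), the widest being Cdh7 (-1.90 ± 0.122), Cdh6 (-1.25 ± 0.105), Pcdh7 (-1.05 ± 0.0507) and Cdh22 (-0.74 ± 0.0545). Of 21 Wnt pathway genes 7 were higher and 4 lower, and 5 of the 7 and 2 of the 4 were above the cut-off in both regions. The median of 0.00512 turned to -0.0316 with housekeeping scaling. Rspo2, which amplifies Wnt signals, differed by 1.22 ± 0.117, Wnt4 by 1.07 ± 0.0977 and Wnt2 by 1.04 ± 0.123, while Wnt16 was lower at -0.79 ± 0.131. Of 24 BMP, TGF-beta and FGF genes 9 were higher and 6 lower, with a median of 0.03 that turned to -0.00812 with that scaling. The receptor Fgfr1 had 9.16, 9.10 and 9.31 in HC and 7.86, 7.92 and 7.90 in PFC (1.30 ± 0.0587). The BMP antagonist Chrd (0.58 ± 0.0507) and the intracellular factors Fgf13 (0.61 ± 0.0464) and Fgf12 (-0.77 ± 0.0537) differed less.

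Of 9 neurotrophin genes 4 were higher and 2 lower (median 0.08). Gfra2, the receptor of neurturin, had 8.02, 8.30 and 8.32 in PFC and 6.32, 6.18 and 5.93 in HC (-2.07 ± 0.129), whereas Gfra1, which binds GDNF, was higher in HC by 0.71 ± 0.0749. Ntf3 and its receptor Ntrk3 (0.59 ± 0.0508) were both higher in HC, as was Bdnf (0.32). Genes of neurogenesis, which goes on in the adult dentate gyrus, gave 3 higher and 2 lower of 11 (median -0.02). Ccnd2 (0.52 ± 0.0463) and Dpysl3 (0.54 ± 0.0893) were higher, and Stmn1 (-1.30 ± 0.0824) and Tubb3 (-0.46 ± 0.0497) lower. Doublecortin, Dcx (-0.10), was not called, and Top2a and Cdk1 stayed under the cut-off in both regions.

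Corticosteroid genes included the widest difference towards PFC and a wide difference towards HC. Of 14 genes 5 were higher and 6 lower (median -0.04), and 3 of the 6 were above the cut-off in both regions. Besides Cyp11b1 and Nr3c2, Cyp7b1, which hydroxylates neurosteroids, had 8.53, 8.43 and 8.50 in HC and 7.28, 7.21 and 7.47 in PFC (1.16 ± 0.0601), and Crhbp, which binds corticotropin-releasing hormone, was lower in HC at -0.83 ± 0.0748. The glucocorticoid receptor Nr3c1 (0.03) was not called, with means of 9.14 in HC and 9.11 in PFC. The steroid-making genes Star, Cyp11a1 and Cyp17a1 were under the cut-off in both regions.

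Immediate early genes, which neurons transcribe within minutes of activity, were mostly lower in HC. Of 18 tested 12 were lower, 4 higher and 2 not called (median -0.54). Dusp1, a phosphatase that ends MAP kinase signals, had 9.54, 9.79 and 9.79 in PFC and 8.05, 7.74 and 7.79 in HC (-1.85 ± 0.115, adjusted p = 0.000211). Fos differed by -0.995 ± 0.131, with 7.38, 7.77 and 7.59 in PFC and 6.77, 6.45 and 6.53 in HC. Nr4a1 (-0.96) and Arc (-0.66) had the same direction. The relatives of Nr4a1 went the other way. Nr4a2 had 8.94, 8.70 and 8.81 in HC and 7.26, 7.39 and 7.43 in PFC (1.45 ± 0.0813), and Nr4a3 differed by 0.98 ± 0.0613. Bdnf (0.32) and Jun (0.30) were also higher. The rats were untreated, and their activity before death is not given in the sources used here.

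The promoters of Dusp1, Nr4a1 and Nr4a2 are shown because these genes share a family of activity signals and differ in direction. Each is 250 bases before the start of the gene on assembly GRCr8, from RefSeq, written 5′ to 3′ on the strand of the gene. Capitals mark TGACG, the core of the cAMP response element, on either strand, where it reads CGTCA on the other strand, and the full palindrome TGACGTCA overlaps it on both strands. Dusp1 lies at chr10:17184603-17184852 (plus strand), Nr4a1 at chr7:134259888-134260137 (plus strand) and Nr4a2 at chr3:62104888-62105137 (minus strand).
Dusp1: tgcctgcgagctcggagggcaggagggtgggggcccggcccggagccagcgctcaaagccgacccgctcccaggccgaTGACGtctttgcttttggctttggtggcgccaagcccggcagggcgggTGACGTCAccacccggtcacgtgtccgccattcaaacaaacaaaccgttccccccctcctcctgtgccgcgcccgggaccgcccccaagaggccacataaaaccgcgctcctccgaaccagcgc
Nr4a1: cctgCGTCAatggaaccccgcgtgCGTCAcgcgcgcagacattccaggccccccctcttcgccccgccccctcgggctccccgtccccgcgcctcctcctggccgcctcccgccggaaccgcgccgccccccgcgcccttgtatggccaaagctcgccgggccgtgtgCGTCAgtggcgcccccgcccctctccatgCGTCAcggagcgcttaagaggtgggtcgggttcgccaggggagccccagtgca
Nr4a2: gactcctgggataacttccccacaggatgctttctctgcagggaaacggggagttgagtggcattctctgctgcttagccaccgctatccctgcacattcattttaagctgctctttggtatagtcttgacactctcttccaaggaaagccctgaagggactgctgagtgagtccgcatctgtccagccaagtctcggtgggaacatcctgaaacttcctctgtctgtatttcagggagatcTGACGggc

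Dusp1, lower in HC, held the full element between 124 and 117 bases before its start, and a further core. Nr4a1, also lower, held the core 4 times on the other strand and no full element. Nr4a2, higher in HC, held the core once, between 8 and 4 bases before its start. Of all 33469 promoters of this length, 18.2% held the core and 1.59% the full element. Of the 16 genes of the immediate early list with a promoter sequence 10 held the core and 4 the full element. Btg2, which had no probe set with its symbol alone and was not tested, is counted in both. A match of letters is a description and not a site of binding.

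Clock genes, read here around 10 in the morning only, gave 3 higher and 7 lower of 15 (median -0.13). Bhlhe40, a repressor of the clock, had 10.05, 10.05 and 10.25 in PFC and 8.98, 8.85 and 8.88 in HC (-1.21 ± 0.0678), and its relative Bhlhe41 went the other way (0.76 ± 0.0462). Npas2 (-1.03 ± 0.0473) and its partner Bmal1 (-0.57 ± 0.065) were lower in HC. Of 18 protein kinase C and RGS genes 5 were higher and 8 lower (median -0.16). Rgs17 (-1.003 ± 0.0493) and Rgs2 (-0.80 ± 0.053) had the direction of Rgs4, and Rgs14 the opposite. Enzymes of cyclic nucleotides gave 3 higher and 14 lower of 28 (median -0.19). Both subunits of the nitric oxide receptor guanylyl cyclase were lower in HC, Gucy1a1 with 8.53, 8.60 and 8.79 in PFC and 7.11, 7.28 and 7.32 in HC (-1.41 ± 0.0506) and Gucy1b1 at -1.08 ± 0.0527. The protein kinase A subunits Prkar2b (-1.02 ± 0.057) and Prkacb (-0.65 ± 0.0461) were lower as well.

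Genes of the extracellular matrix gave 8 higher and 1 lower of 16 (median 0.20), with Hapln2 (0.94 ± 0.0824), a link protein of the nodes of Ranvier, and the perineuronal net component Ncan (0.50 ± 0.0512) higher and Thbs1 (-0.43), above the cut-off in PFC alone, lower. With housekeeping scaling 3 were lower. Genes of general upkeep were called at or below the share of all probe sets (33.8%). Of 44 cytosolic ribosomal protein genes 6 were higher and none lower (13.6% called, median 0.04), the widest being Rplp0 at 0.28 ± 0.0512 and Rps2 at 0.28 ± 0.0477, the latter not called without rat 5 (0.27, adjusted p = 0.0558). Of 51 respiratory chain and ATP synthase genes 14 were lower and none higher (27.5% called, median -0.12), with Cox7b at -0.44 ± 0.0552 and Ndufs3 at -0.39 ± 0.049. A housekeeping panel of 21 genes had 2 higher and 5 lower (33.3% called, median -0.06, median size 0.142 against 0.123 over all probe sets), and 1 higher and 8 lower when the arrays were scaled on that panel. Gapdh (-0.17) and Actb (0.09) were not called, and Hprt1 was lower at -0.27 ± 0.0442.

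Totals above 6.2 were almost the same in the 2 regions. They were 13789 probe sets in HC (SD over the 3 rats, 36.1) and 13766 in PFC (52.1), of which 13381 were shared. The arrays were quantile normalized, which holds such totals alike, and the blood arrays also had 13732 to 13937 above 6.2. The near-equal totals and their SD are thus no result about the regions. Presence here rests on the mean value alone, without detection p-values. In HC alone were 408 and in PFC alone 385, but 329 and 321 of these lay within 0.5 above the cut-off. Of those in HC alone 74 differed by over 1, the widest with a single gene symbol being Ttr, Nts, C1ql2, Prox1 and Slc9a4. Of those in PFC alone 64 differed by over 1, the widest with a single gene symbol being Cyp11b1, Sema3a, Olr59, Tmem196 and Rasgef1c. As presence in 1 region selects for a difference, no test is read from these counts.

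Leaving blood out of the fit brought small differences into view. In a fit of all 9 arrays without the rat as a block, 1547 of 16884 probe sets (9.16%) were called between HC and PFC. Called in the fit of brain arrays and in that fit were 1504, in the brain fit alone 3284, and none of the probe sets tested in both was called with blood alone. The residual SD had a median of 0.0618 in the brain fit and 0.148 with blood, and the standard error of 0.0533 and 0.119. The 3284 had a median size of 0.265, with the 5th and the 95th percentile at 0.171 and 0.559, whereas the 1504 had a median of 0.723. Of the 3284, 1681 were higher and 1603 lower in HC, and 3015 differed by under 0.5.

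Named genes of this kind with the smallest adjusted p included cell polarity, transcription and lipid signalling genes. Pard3, a polarity protein, had 7.34, 7.34 and 7.36 in HC and 6.52, 6.53 and 6.67 in PFC. The difference was 0.77 ± 0.0508 (adjusted p = 0.000244 in the brain fit and 0.143 with blood). The transcription factor Nfib (0.74 ± 0.0486), the netrin relative Ntng1 (0.71 ± 0.0479) and Dagla (0.70 ± 0.0486), which makes the endocannabinoid 2-arachidonoylglycerol, stood with it. Dagla had 8.82 in the PFC of all 3 rats and 9.48, 9.50 and 9.59 in HC. Values identical on all 3 arrays of a region occurred in 442 of the probe sets tested, 173 of them called. The zinc transporter Slc39a12 differed by 0.90 ± 0.059, with 7.85, 7.74 and 6.05 in HC and 6.97, 6.95 and 5.03 in PFC. Rat 7 was lower than the others in both regions, so the regions overlap between rats and not within them, and without the block it was not called (adjusted p = 0.346).

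Lower in HC and called only in the brain fit were the G protein subunit Gng13 (-1.03 ± 0.0481), with 7.42, 7.65 and 7.85 in PFC and 6.33, 6.67 and 6.81 in HC, and the potassium channel Kcnh3 (-0.91 ± 0.05). Col1a2, a collagen of the meningeal list, the secreted protein C1qtnf4 (-0.73 ± 0.0467) and Spetex2el3 (-0.68 ± 0.045), of a family of similar copies and thus uncertain, completed the 5. Their adjusted p with blood ran from 0.0659 to 0.159. The housekeeping gene Hprt1 (adjusted p = 0.00633 against 0.138) and the endothelial receptor Kdr (0.00629 against 0.0575) likewise passed in the brain fit alone.

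**Figure D5:**
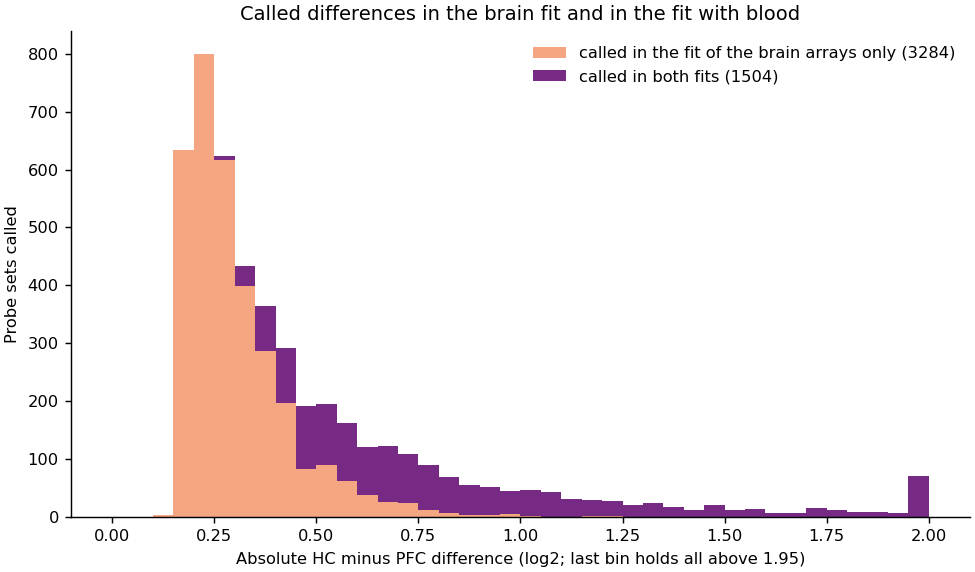
Number of probe sets called (vertical axis) by the size of the HC minus PFC difference (log2, horizontal axis, last bin holding all above 1.95), stacked for those called in the fit of the brain arrays alone and those called in both fits. The 3284 probe sets called without blood alone lie mostly under 0.5 (3015 of them), and the 1504 called in both fits lie mostly above it.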

How the data were processed

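Total RNA of HC, PFC and blood of male Wistar rats was hybridized to Rat Gene 1.0 ST arrays (Affymetrix). The authors quantile normalized the arrays and summarized each probe set by RMA with Affymetrix power tools 1.51. The deposited log2 values were used as they stand. The base of the log is not named and was read from the range of values. Genome build and annotation version are not given in the sources used here.

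The 6 brain arrays were fitted with limma 3.58.1 in R 4.3.3 (lmFit with region and rat, eBayes, Benjamini-Hochberg over 14174 probe sets), which leaves 2 residual degrees of freedom, moderated over probe sets. Sources differ on the number of rats killed, and samples of 3 were used. The animal number of each sample is given per the labels, and deviations from the region means correlated at 0.211 to 0.322 within a rat and at -0.255 to -0.0133 between rats. The 3 deviations of a region sum to 0, so positive values within rats push those between rats below 0, and the gap is widened. Each rat is a replicate. The number of arrays limits the precision, and with 3 pairs the smallest two-sided p of an exact test on 1 gene is 0.25, so none is given.

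Gene symbols come from the platform annotation, updated by gene ID through RefSeq genes of GRCr8 (15279 of 15310 matched). Of the probe sets with values, 15310 had 1 symbol, 323 several and 13581 none. Gene lists hold 1 probe set per gene. Genes named, from probe sets with 1 symbol, are the 15 widest in each direction, up to 4 widest called members of each list, the 5 with the smallest adjusted p in each direction called only without blood, and the 5 widest above the cut-off in 1 region alone. Members named beyond this to complete a count, or as examples of a role, were chosen after their values were seen. The members and lists were chosen with earlier results of these data known, so no list serves as independent support. Presence in 1 region alone selects for a difference, and 263 of the 408 probe sets in HC alone and 241 of the 385 in PFC alone were called. Counts without such members stand beside some lists only.

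Alternatives changed the block, the filter, the scaling, the threshold, the moderation, the probe set per gene and the rats included. Figures were drawn with matplotlib 3.10.9.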

Additional observations from a re-analysis of the deposited data

How the results depend on the processing

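No result changed direction past its threshold under any alternative run. Against 2424 probe sets higher and 2364 lower in HC, a fit of all 9 arrays called 761 and 786 without the rat as a block and 670 and 720 with it. Without a filter on dim probe sets 1499 and 1493 were called, at an adjusted p under 0.01 1279 and 1289, and with a difference over 0.5 required as well as an adjusted p under 0.05 708 and 738. Leaving out rats or single arrays gave 1411 to 1650 higher and 1308 to 1777 lower. With the rat as a block, an array without its partner adds nothing to the difference, so runs without single arrays nearly repeat those without rats. Rats 5 and 7 each moved the counts by over 1.5 times, to 1425 and 1329 without rat 5 and to 1501 and 1520 without rat 7, in fits with fewer arrays.

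Because each rat gave both regions, the paired fit is the one reported. Without the rat as a block 2257 were higher and 2295 lower, of which 2091 and 2127 were shared with the paired fit, and with the rat as a random block 2515 and 2520. Leaving the block out ended 3 calls among 181 named genes, Slc39a12 (adjusted p = 0.346), Slco1a4 (0.0678) and Rps3 (0.0728). Housekeeping scaling moved the median of all probe sets by -0.0367 and the split to 1967 and 2925, with no named gene losing its call. The count called without blood alone, 3284, was 1713 at an adjusted p under 0.01, 1941 to 2723 without single rats, 3048 with no block in either fit and 3433 with the block in both.

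Without 1 rat in turn 2 to 9 of the named genes lost their call and kept their direction, among them Amigo2, Gpi, Rpl22, Rps3 and Reep5. Counted with 1 probe set per gene, 8413 genes were above the cut-off in HC and 8436 in PFC, 8226 in both, 187 in HC alone and 210 in PFC alone.

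Medians of lists that changed sign were all near 0 (Wnt, semaphorin, BMP and FGF, corticosteroid, microglia and neurogenesis genes). Signal over background limits what can be said of 7 probe sets called higher with PFC at background and 7 called lower with HC at background, whose differences are bounds.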
